A study of Canis lupus familiaris with 222 samples.

Results

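Complex canine mammary tumors (CMTs) are tumors of the mammary gland in which both luminal epithelial and myoepithelial cells proliferate. In complex adenomas this growth is benign, and in complex carcinomas the epithelial component is malignant. Malignant tumors are graded by pathologists on tubule formation, nuclear shape and mitoses, so that grade 1 tumors lie closest to adenomas under the microscope. Complex tumors are common in dogs and rare in human breast, and the boundary between complex adenoma and grade 1 complex carcinoma is one of the difficult ones in diagnosis.

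RNA-seq of 49 complex tumors was compared here, 36 complex carcinomas with 13 complex adenomas, out of 158 tumors and 222 libraries in the series. Each tumor came from a different female dog, was spontaneous and was removed by surgery, and no genetic modification or treatment group was part of the design. Histology was taken from Supplementary Data 1 of the study. By grade, the carcinomas comprised 27 of grade 1, 6 of grade 2 and 3 of grade 3. For 3 of the grade 1 carcinomas (CMT-124, CMT-128 and CMT-374) the sample label instead gives complex adenoma, and 1 further tumor labelled complex adenoma (CMT-351) has no entry there and was left out of the groups. The dogs of the 49 tumors were 6 to 17 years old, with 1 age not given. Surgeries in 2016, 2017 and 2018 numbered 2, 11 and 0 for adenomas. They numbered 3, 18 and 6 for grade 1 carcinomas, and 4, 5 and 0 for carcinomas of grade 2 or 3. Expression was deposited as FPKM (a fragment count scaled to transcript length and to the mapped fragments of the library) for 24580 Ensembl gene identifiers. The identifiers could not be paired with gene names here, so gene functions are not given and the histology was not checked against epithelial or myoepithelial markers.

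No clinical or library measure differed between adenomas and carcinomas of all grades pooled after correction. These measures were not tested for grade 2 or 3 alone. The dogs with carcinoma had a mean age of 12.1 ± 2.41 years (SD, n = 36) and those with adenoma 10.2 ± 2.45 years (SD, n = 12, 1 age not given). This was the difference with the smallest p among 11 measures (two-sided permutation test, p = 0.0405, Benjamini-Hochberg adjusted p = 0.445). Among tumors whose label and listed histology were the same, that permutation test gave p = 0.0149 (adjusted p = 0.164). ER-positive tumors numbered 34 of 36 carcinomas and 10 of 13 adenomas, and neutered dogs 8 of 36 and 1 of 13. Lymphatic invasion was recorded in 0 carcinomas and 0 adenomas. The basal expression class that the authors assigned from these same libraries held 6 carcinomas and 1 adenoma. It was unevenly spread over grade, with 5 of the 9 grade 2 or 3 carcinomas and 1 of the 27 grade 1 carcinomas. Genes at FPKM 1 or more numbered from 10413 to 13281 per tumor. The lowest number belonged to the adenoma CMT-156, whose median FPKM over genes was also the lowest, 2.99 against a median of 7.45 over the 49 tumors.

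No single gene passed the test between complex carcinomas and complex adenomas. Of 14481 genes that averaged 0.5 FPKM or more, 0 (0%) were called in limma at a Benjamini-Hochberg adjusted p under 0.05 and a difference of at least 1 on the scale of log2(FPKM + 1), and 0 passed on adjusted p alone. A difference of 1 is a 2-fold change of FPKM + 1, and this scale understates the change of weakly expressed genes. The smallest adjusted p in limma was 0.361. At an unadjusted p under 0.05 there were 1870 genes (12.9%), of which 1303 were higher and 567 lower in carcinomas. In every one of the 14481 genes the FPKM ranges of the carcinomas and the adenomas overlapped. In bulk tissue, fewer cells of a type and less RNA per cell cannot be told apart, and this holds for each difference below.

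The number of tumors limited the size of difference that could be seen. The 95% confidence interval of the difference on that scale extended a median of 0.31 to either side. For 13249 genes (91.5%) the whole interval lay within 1 unit of 0. The estimated difference reached 1 in size in 89 genes, 27 higher and 62 lower in carcinomas, and ranged from -2.55 to 1.68 over all genes.

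The overall profiles of the tumors intermixed. The median Pearson correlation over genes was 0.900 between pairs of adenomas, 0.895 between pairs of carcinomas and 0.895 between an adenoma and a carcinoma. The median was 0.909 between pairs of grade 1 carcinomas, 0.901 between a grade 1 carcinoma and an adenoma, 0.857 between grade 2 or 3 carcinomas and adenomas and 0.849 among grade 2 or 3 carcinomas. Among the first 5 principal components, the second (11.9% of the variance) had the smallest p, with a mean score of 4.86 ± 29.6 (SD, n = 36) in carcinomas and -13.5 ± 17.7 (SD, n = 13) in adenomas (two-sided permutation test, p = 0.0210, adjusted p = 0.105). On that component 7 carcinomas lay above the highest adenoma. CMT-156 lay apart from the other tumors on the first component, at -113.

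**Figure D1:**
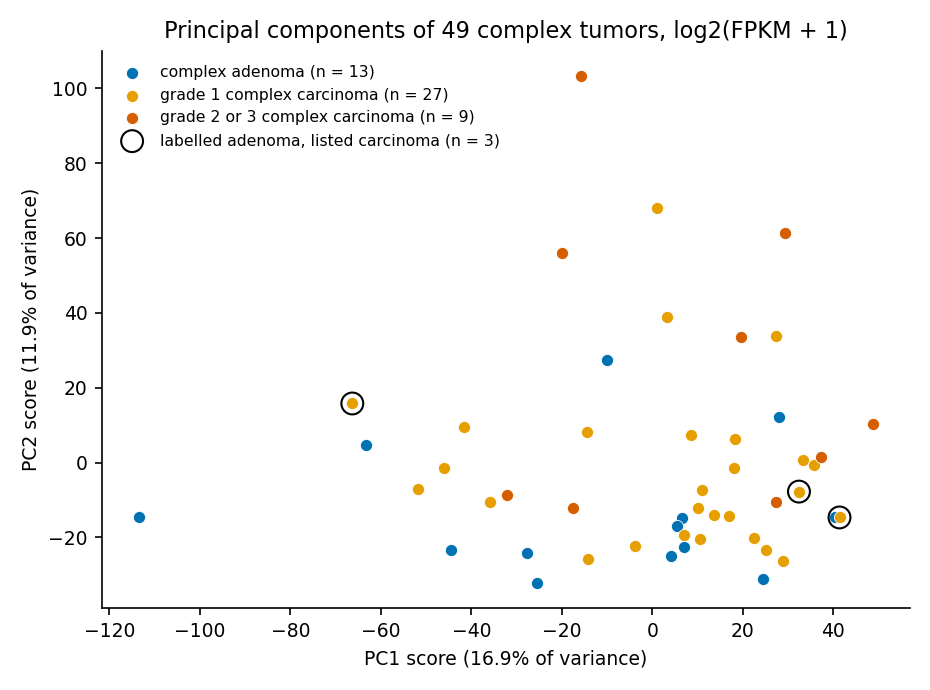
Scores of the 49 complex tumors on the first (x axis, 16.9% of variance) and second (y axis, 11.9%) principal component of log2(FPKM + 1), without units, with 1 point per tumor. Adenomas (blue) lie among the grade 1 carcinomas (orange), the highest second-component scores, up to 103, belong to carcinomas, and the 3 circled tumors are those labelled adenoma and listed as carcinoma.

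Split by grade, the absence of called genes held for grade 1 and not for grade 2 or 3. Between 27 grade 1 carcinomas and 13 adenomas, 0 of 14481 genes were called in limma (0%), the smallest adjusted p was 0.582, and 1182 genes (8.16%) had an unadjusted p under 0.05. Between the 9 grade 2 or 3 carcinomas and the adenomas, 108 genes (0.746%) were called, 19 higher (0.131%) and 89 lower (0.615%) in the carcinomas, with a smallest adjusted p in limma of 0.0176. On adjusted p alone 265 genes (1.83%) passed, and 3095 (21.4%) had an unadjusted p under 0.05. Of the 108 called genes, 84 had an adjusted p of at least 0.04, just inside the threshold. The median log2 difference was 1.14 in the 19 higher genes and -1.44 in the 89 lower ones, against 0.04 over all genes. The ranges of the 9 carcinomas and the 13 adenomas overlapped in each of these genes, as in all 14481.

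Grade 2 or 3 carcinomas also differed from grade 1 carcinomas, with 27 genes (0.186%) called, 5 higher (0.0345%) and 22 lower (0.152%), and 51 (0.352%) on adjusted p alone. Both comparisons use the same 9 carcinomas, and 2 of the 19 higher and 16 of the 89 lower genes were called in each. The 27 fell to 0 without CMT-118 and to 1 without CMT-153, CMT-201 or CMT-217, and rose to 68 without CMT-301, 76 without CMT-142, 80 without CMT-308, 25 higher and 87 lower without CMT-278, and 44 higher and 92 lower without CMT-121. The grade 1 mean lay between the adenoma mean and the grade 2 or 3 mean for 19 of the 19 higher genes and for 87 of the 89 lower genes. It stood a median of 36.2% of the way from adenoma to grade 2 or 3 in the higher genes and 21.9% in the lower ones. These shares describe genes chosen for the difference between the outer groups.

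**Figure D2:**
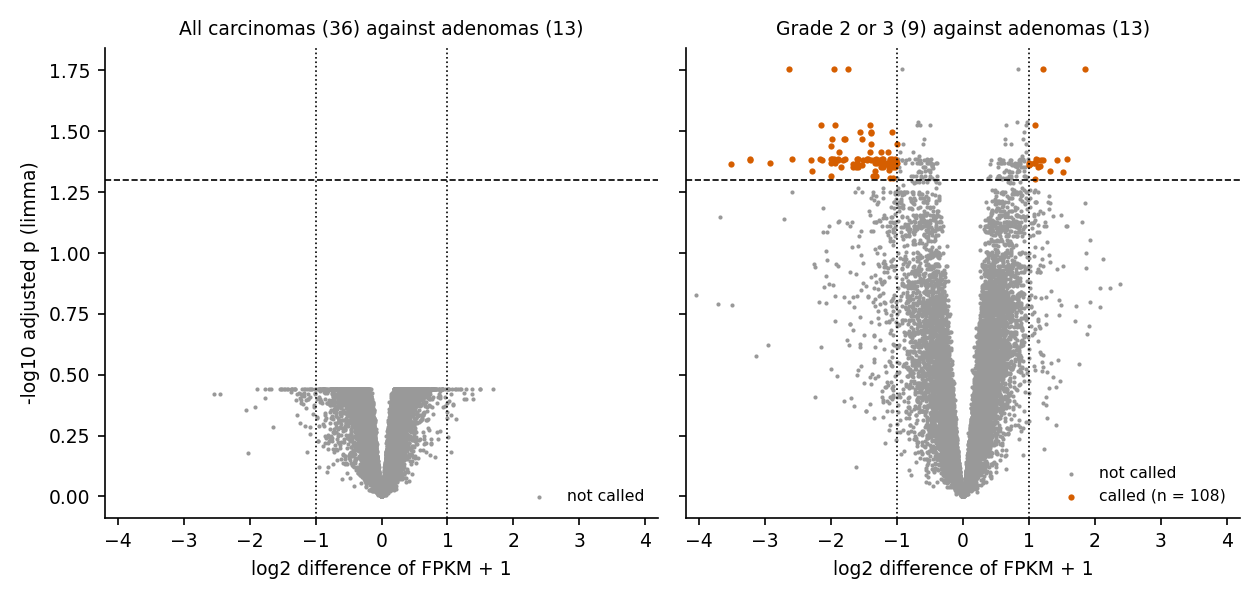
Log2 difference of FPKM + 1 (x axis, carcinoma minus adenoma) against -log10 of the limma adjusted p (y axis) for 14481 genes, with 1 point per gene, for the 36 carcinomas (left) and the 9 of grade 2 or 3 (right) against the 13 adenomas. Dashed and dotted lines mark an adjusted p of 0.05 and a difference of 1; on the left every gene lies below the dashed line, and on the right the 108 called genes (red) lie close above it, most of them on the lower side.

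Single tumors decided how many genes were called in grade 2 or 3. Leaving out CMT-118 or CMT-201 left 0 genes called, leaving out CMT-153 left 2 and leaving out CMT-217 left 8. These are 4 of the 5 basal tumors of that group. Without the fifth basal tumor, CMT-142, the number rose to 285, and without the non-basal CMT-121 or CMT-308 it rose to 283 or 196. Among the adenomas, leaving out CMT-091 or CMT-522 left 6, CMT-060 left 9, CMT-245 left 10, CMT-317 left 13 and CMT-272 left 55, while 58 higher and 139 lower genes were called without CMT-355 and 68 and 135 without CMT-452. Without CMT-156, the adenoma with the fewest genes detected, 0.814% of genes were called. Over these 22 leave-one-out fits all 108 genes kept their sign and an unadjusted p under 0.05, 75 kept a difference of at least 1 on the log2 scale, and 0 were called in every fit. The genes were chosen for a small p in these tumors, which favours a stable sign.

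**Figure D3:**
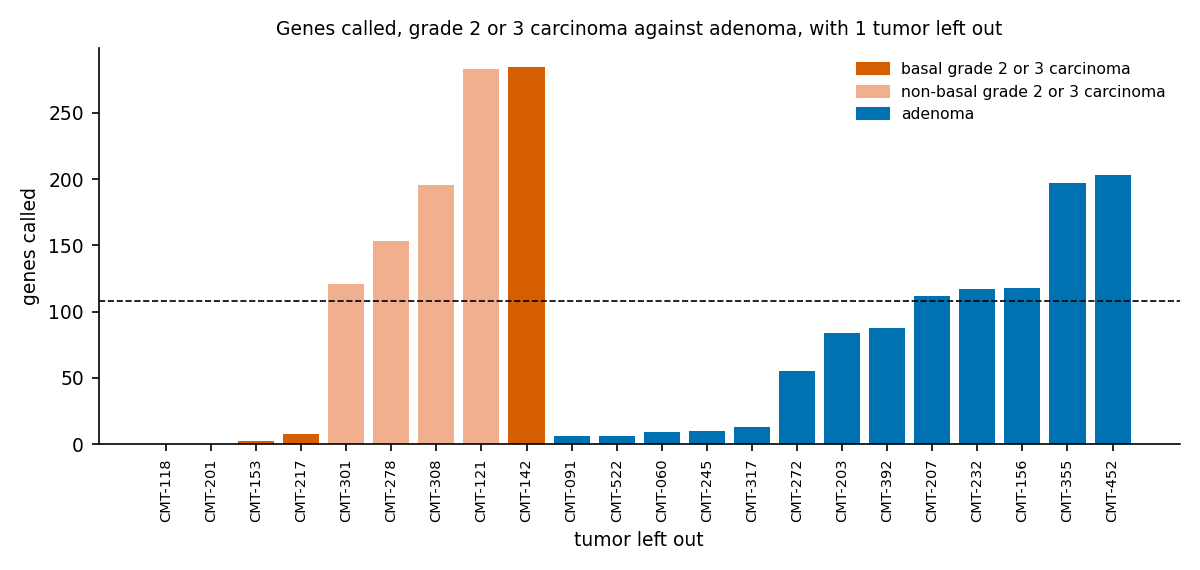
Number of genes called between grade 2 or 3 complex carcinomas and complex adenomas (y axis) when the tumor on the x axis is left out, with bars for basal carcinomas (red), non-basal carcinomas (pale) and adenomas (blue). The dashed line is the 108 genes called with all tumors; the bars run from 0 without CMT-118 or CMT-201 to 285 without CMT-142.

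Basal class moved with grade, and no gene was called against adenomas when it entered the model. With basal class as a covariate 0 genes were called, and 0 were called between the 4 non-basal grade 2 or 3 carcinomas and the 12 non-basal adenomas. With age as a covariate, in which CMT-522, the adenoma without an age, was dropped, 0 were called against adenomas (smallest adjusted p in limma 0.114). Without CMT-522 and with no covariate, 6 were called. With age, 0.131% of genes were still called between grade 2 or 3 and grade 1. That share was 0.00691% with surgery year as a covariate, and 0 genes were called with basal class. The mean age was 12.2 ± 2.77 years (SD, n = 9) in grade 2 or 3 and 12.0 ± 2.34 years (SD, n = 27) in grade 1. Because the basal class was drawn from expression in these libraries and holds 5 of the 9 tumors, class and grade cannot be told apart well at this number of tumors.

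The values of 4 genes are given as examples, the 2 with the largest called difference in each direction that averaged 5 FPKM or more on their higher side. They were picked for size and need not stand for the other called genes. ENSCAFG00000018115 had an FPKM of 0.0353 to 2.35 in adenomas (median 0.508), 0.0243 to 2.25 in grade 1 carcinomas (median 1.01) and 0.167 to 26.8 in grade 2 or 3 carcinomas (median 7.12). The 6 highest values of the last group, from 5.45 in CMT-308 to 26.8 in CMT-118, lay above every adenoma and every grade 1 carcinoma, and the other 3 lay inside the adenoma range. The log2 difference from adenoma was 1.85 (SE 0.34, adjusted p = 0.0176 in limma) in grade 2 or 3 and 0.68 (SE 0.31, adjusted p = 0.376) over all carcinomas. In grade 2 or 3 it was 2.82 with a pseudocount of 0.1, 1.72 with age as a covariate, 1.49 with basal class as a covariate and 1.40 among non-basal tumors, the last 3 not called.

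ENSCAFG00000000206 ran from 0.551 to 13.6 FPKM in adenomas (median 1.94), from 0.697 to 13.1 in grade 1 (median 4.27) and from 1.85 to 24.6 in grade 2 or 3 (median 15.9). The high values came from 5 tumors, at 15.9 to 24.6, both basal and non-basal, and 4 tumors lay within the adenoma range. The log2 difference was 1.59 (SE 0.39, adjusted p = 0.0412 in limma) in grade 2 or 3 and 0.87 (SE 0.31, adjusted p = 0.361) over all carcinomas. In grade 2 or 3 it was 1.41 with age, 1.45 with basal class and 1.70 among non-basal tumors, none of them called. Within the authors' expression clusters NMF1 and NMF2, with 6 grade 2 or 3 tumors, it was 1.15 (adjusted p = 0.163 in limma). Normal mammary tissue beside the carcinomas had a median of 21.2 FPKM (n = 20), above the medians of all 3 tumor groups.

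ENSCAFG00000003648 was an abundant transcript in adenomas, at 141.7 to 9722 FPKM (median 768), and in grade 1 carcinomas, at 61.6 to 5500 (median 689). In grade 2 or 3 carcinomas it ran from 0.653 to 1783 (median 125). The 5 values below the adenoma range were those of the 5 basal tumors, 0.653 in CMT-201, 1.57 in CMT-118, 3.67 in CMT-153, 29.6 in CMT-142 and 125 in CMT-217, and the 4 non-basal tumors lay at 504 to 1783, inside that range. Of the basal tumors only CMT-201 and CMT-217 had normal tissue of the same dog, and it was at 0.381 and 0.910 FPKM. Normal tissue beside the 4 non-basal tumors ran from 1.41 (CMT-278) to 331 FPKM (CMT-301). The log2 difference was -3.51 (SE 0.94, adjusted p = 0.0433 in limma) in grade 2 or 3 and -1.08 (SE 0.80, adjusted p = 0.518) over all carcinomas. In grade 2 or 3 it was -3.10 with age and -1.34 with basal class, neither called, and 0.01 among non-basal tumors (adjusted p = 0.999 in limma).

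ENSCAFG00000006430 ran from 35.9 to 598 FPKM in adenomas (median 201.1), from 0.706 to 348.4 in grade 1 (median 160) and from 0.127 to 223 in grade 2 or 3 (median 17.7). The basal tumors CMT-201, CMT-118 and CMT-153 were nearly without it, at 0.127, 0.225 and 0.264, while CMT-142 had 17.7 and the non-basal CMT-308 had 12.3. In normal tissue of the same dogs it was 0.199 for CMT-201, 0.580 for CMT-217 and 0.275 to 220 for the 4 non-basal tumors. The log2 difference was -3.23 (SE 0.80, adjusted p = 0.0412 in limma) in grade 2 or 3 and -1.22 (SE 0.67, adjusted p = 0.412) over all carcinomas. In grade 2 or 3 it was -2.86 with age, -1.11 with basal class and -0.92 among non-basal tumors, none of them called. Over the 49 tumors, 13 other genes followed ENSCAFG00000003648 with a Spearman rho of at least 0.8 (highest 0.874), and 0 did so for each of the other 3 genes, whose highest rho was 0.769, 0.793 and 0.782 in the order given above.

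**Figure D4:**
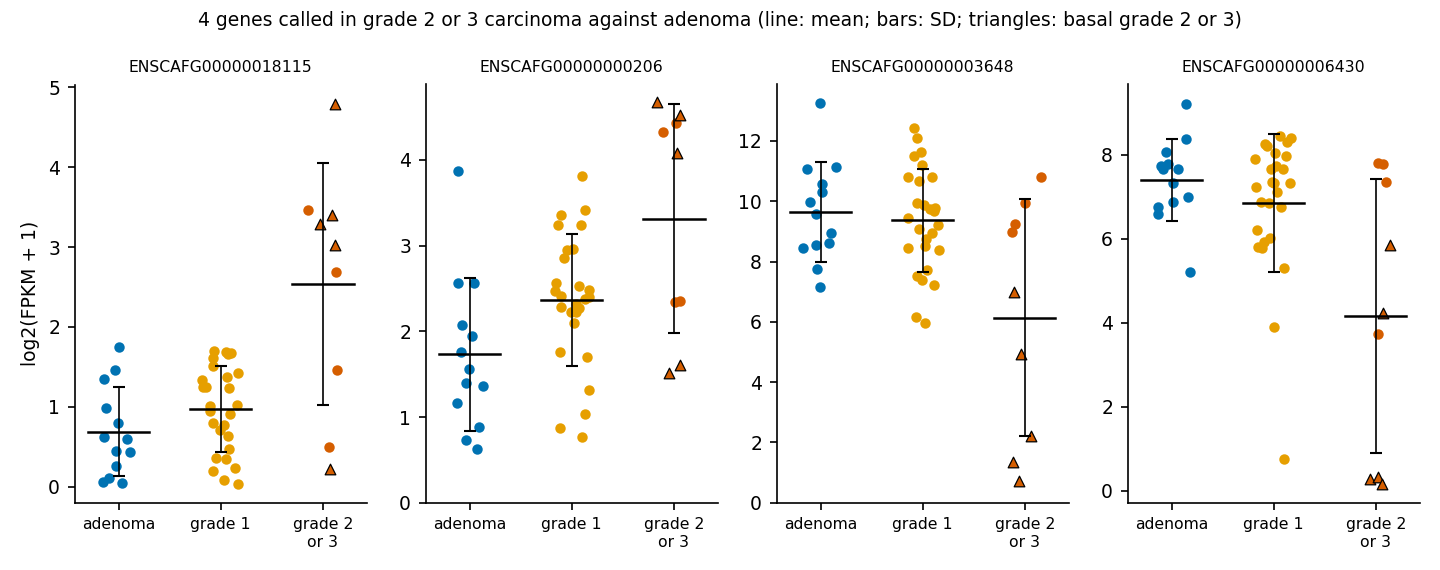
Log2(FPKM + 1) (y axis) of 4 genes in 13 adenomas, 27 grade 1 and 9 grade 2 or 3 complex carcinomas (x axis), with 1 point per tumor, lines for means, bars for SD and triangles for basal grade 2 or 3 tumors. In the left pair part of the grade 2 or 3 tumors lie above the other groups, and in the right pair the lowest values, down to 0.653 and 0.127 FPKM, are basal tumors.

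The 108 genes were summarised in each library as the mean log2(FPKM + 1) of the 19 higher genes minus that of the 89 lower genes. By the choice of genes this value is low in adenomas, with a median of -3.14 (-3.95 to -1.01), and high in grade 2 or 3 carcinomas, with a median of -0.46 (-1.77 to 2.17). Grade 1 carcinomas had a median of -1.98 (-3.20 to 0.51), with 26 of 27 inside the adenoma range. The 1 above it, at 0.51, was the only basal tumor of grade 1. Within grade 2 or 3 the median was 1.28 in the 5 basal and -0.96 in the 4 non-basal tumors, and the 12 non-basal adenomas had a median of -3.21. The basal tumor CMT-142 was the exception, at -1.77 the lowest of the 9. The 3 tumors labelled adenoma and listed as carcinoma lay at -1.82 (CMT-124), -1.52 (CMT-128) and -3.04 (CMT-374), inside the ranges of both adenomas and grade 1 carcinomas.

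The medians of normal tissue lay above that of adenomas in this value. They were -1.17 (-2.55 to -0.15, n = 4) in normal mammary tissue beside adenomas and -1.29 (-3.39 to 0.67, n = 20) beside carcinomas, between the medians of grade 1 and of grade 2 or 3 carcinomas. ENSCAFG00000003648, for example, had a median of 144 FPKM in normal tissue beside carcinomas, against 768 in adenomas and 125 in grade 2 or 3 carcinomas. When each tumor was set against normal tissue of the same dog, the tumor-to-normal difference did not separate 20 carcinomas from 4 adenomas, with 0 of 14654 genes called in limma (0%), a smallest adjusted p of 0.386 and 1042 genes (7.11%) at an unadjusted p under 0.05.

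**Figure D5:**
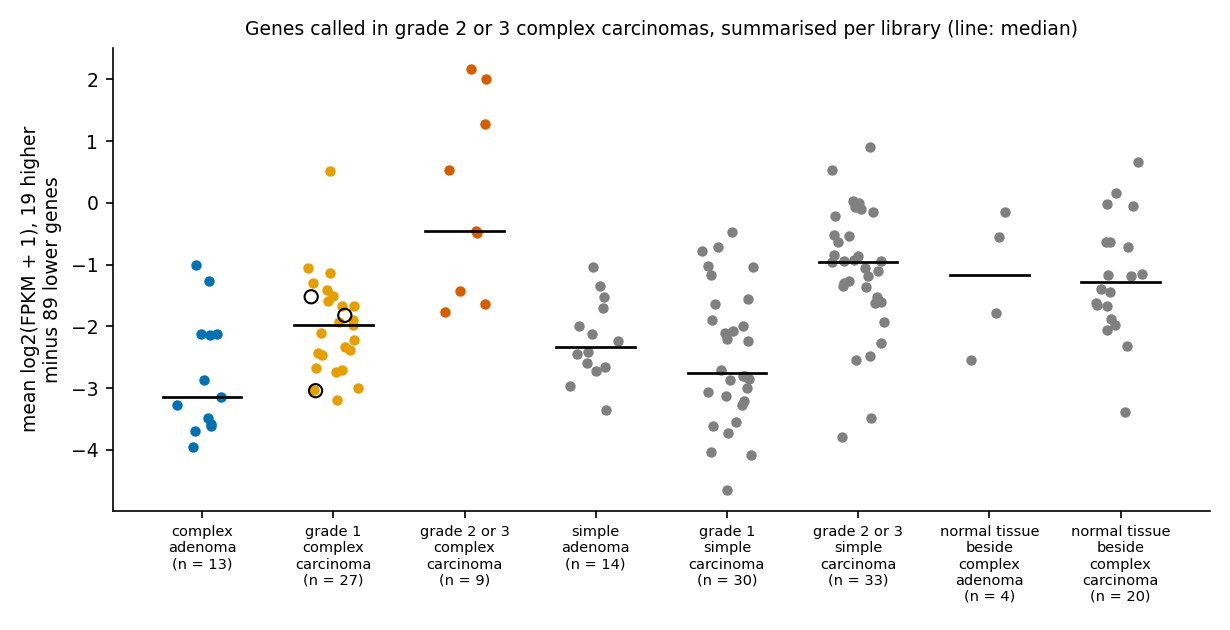
Mean log2(FPKM + 1) of the 19 genes called higher minus that of the 89 called lower in grade 2 or 3 complex carcinomas (y axis) for each library by group (x axis), with lines for medians and open circles for the 3 tumors labelled adenoma and listed as carcinoma. Complex adenomas have a median of -3.14 and grade 2 or 3 complex carcinomas -0.46, for which the genes were chosen; grade 2 or 3 simple carcinomas have -0.96 and normal tissue -1.17 and -1.29.

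Simple tumors, in which 1 type of cell proliferates, gave a comparison with no library in common. For 4 of the 30 grade 1 simple carcinomas the label gives simple adenoma, and they were counted by the listed histology too. Simple carcinomas (n = 63) against simple adenomas (n = 14) also gave 0 called genes of 14496 in limma (0%), with 1554 (10.7%) at an unadjusted p under 0.05. The carcinoma-to-adenoma difference itself passed a test between complex and simple tumors in none of 14551 genes in limma (0 called, smallest adjusted p 0.588, 1207 genes or 8.29% at an unadjusted p under 0.05), and neither did that of grade 2 or 3 alone (0 called, smallest adjusted p 0.0658, 986 genes or 6.78%). The 95% confidence intervals extended a median of 0.49 and 0.60 to either side, and 74.1% and 61.1% lay within 1 of 0. These tests do not show the differences to be alike. In grade 2 or 3, 85 of the 89 lower genes were lower by more in complex than in simple tumors. Likewise 18 of the 19 higher genes were higher by more, and both sets were chosen in complex tumors. Over all genes these shares were 44.3% and 55.7%. In grade 2 or 3 simple carcinomas (n = 33, of which 19 basal) 140 genes were called higher (0.966%) and 152 lower (1.05%) than in simple adenomas, 2.01% of those tested, with 895 (6.17%) on adjusted p alone and 2885 (19.9%) at an unadjusted p under 0.05.

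The genes lower in grade 2 or 3 complex carcinomas were mostly lower in grade 2 or 3 simple carcinomas as well. The make-up of these groups differed, with 20 of 33 simple and 3 of 9 complex tumors of grade 3. Lymphatic invasion was recorded in 14 of the simple and 0 of the complex tumors. Of the 89, 78 had the same sign there, against 52.1% of all genes that were lower, and 27 were called lower, against 1.05% of all genes. Their median log2 difference was -0.68, against -0.01 over all genes. Of the 19 higher genes 18 were tested, of which 15 had the same sign, against 47.9% of all genes, and 2 were called. ENSCAFG00000003648 and ENSCAFG00000006430 were among the 27, with log2 differences of -3.17 (adjusted p = 0.0119 in limma) and -2.88 (adjusted p = 0.00698), whereas the differences of ENSCAFG00000018115 (0.41, adjusted p = 0.506) and ENSCAFG00000000206 (0.29, adjusted p = 0.812) did not pass. Among the 14 non-basal grade 2 or 3 simple carcinomas, 65 of the 89 genes were lower, against 44.8% of all genes, with a median difference of -0.30, and 15 of the 18 were higher, against 55.1% of all genes, with a median of 0.41 (0.34 with basal tumors included). In that comparison 0 of 14400 genes were called in limma.

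In grade 1 simple carcinomas most of these genes lay on the other side. Of the 89 lower genes 31 (34.8%) were lower, with a median log2 difference of 0.09 against -0.05 over all genes, and 5 of the 18 higher genes were higher in 30 grade 1 simple carcinomas than in simple adenomas, with 0 called in limma and 645 of all genes (4.45%) at an unadjusted p under 0.05. Across 14226 genes the log2 differences of complex and simple tumors had a Pearson correlation of 0.468 for grade 2 or 3, 0.147 for all carcinomas and -0.14 for grade 1. These correlations are across genes, which are not independent replicates.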

How the data were processed

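Poly(A) RNA-seq was made by the authors from fresh tumor and adjacent normal mammary tissue. Per the methods and the labels, the authors mapped reads to CanFam3.1 with TopHat2 (2.0.9) and calculated the deposited FPKM values with Cufflinks (2.1.1). The table holds no read counts, so counting error is unknown, and 33 identifiers carry the values of another. Histology, grade, basal class and NMF cluster came from Supplementary Data 1 and mapping rate from Supplementary Data 3. Tumors and comparisons were chosen with earlier results of these data known.

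FPKM was analysed as log2(FPKM + 1) for genes averaging 0.5 FPKM or more over the libraries compared. Differences were tested with limma 3.58.1 (R 4.3.3, trend), with Benjamini-Hochberg adjustment over all genes tested. Calls required an adjusted p under 0.05 and a difference of at least 1 (2-fold in FPKM + 1). Grade contrasts came from 1 fit of the 49 tumors in 3 groups. Comparisons with normal tissue used differences within the dog. Clinical and library measures were compared by two-sided permutation tests (100000 resamples) or Fisher's exact test.

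Named genes were the 2 called genes per direction that differed most and averaged 5 FPKM or more on the higher side. Since 0 genes were called over all carcinomas, this rule was applied to grade 2 or 3 against adenoma after the results were seen. Gene names for the identifiers were not given in the sources used here, so marker and pathway lists were not analysed here. Alternatives covered the pseudocount, filter, scaling, covariates, tumor subsets, histology source and left-out tumors.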

Additional observations from a re-analysis of the deposited data

Results flagged for a closer look

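The FPKM of ENSCAFG00000018115 in CMT-118, a grade 2 basal complex carcinoma, was 26.8, and the next highest of the 9 grade 2 or 3 carcinomas was at 10.0. The gap was 0.630 of the whole range of the group. This was 1 of 16 groups of samples checked. Chance alone picks out about 1 in 20 where values are normally distributed. FPKM was checked without a log scale, so that rate need not hold here. Without CMT-118 no gene was called between grade 2 or 3 carcinomas and adenomas.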

How the results depend on the processing

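For all complex carcinomas against adenomas, 0 genes were called in limma under 16 of 17 other settings, with 665 to 2824 genes at an unadjusted p under 0.05, the fewest with age as a covariate. The exception was surgery in 2017 only, with 2 called, both lower. Leaving out each of the 49 tumors in turn gave 0 to 0 calls. Grade 1 against adenoma stayed at 0 under all 36 other settings run, and the difference between complex and simple tumors under all 3.

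For grade 2 or 3 against adenoma the calls went from 108 to 168 with a pseudocount of 0.1, 70 with surgery year as a covariate, 0 with age (and without CMT-522), 6 with mapping rate, 0 with basal class, 180 after centring on library medians, 177 after quantile normalization, 0 in non-basal tumors, 1 in surgeries of 2017, 276 in ER-positive tumors and 168 without the NMF3, NMF4 and NMF5 adenomas, and from 0 to 285 with 1 tumor left out. For grade 2 or 3 against grade 1 the share of genes called went from 0.186% (5 higher, 22 lower) to 0.311% with a pseudocount of 0.1, 0.00691% with surgery year, 0.703% in NMF1 and NMF2 tumors (58 higher, 43 lower), 0.0967% with mapping rate, 0.338% after quantile normalization, 0.0208% in non-basal tumors, 0.00693% in surgeries of 2017, 0.976% in ER-positive tumors, 0.119% in genes averaging 1 FPKM or more and 0% with basal class, and from 0% to 0.939% with 1 tumor left out. The cause was not tested. Except for pseudocount, surgery year, NMF1 and NMF2 tumors and the tumors whose histology is the same in both sources, the alternatives for grade were chosen after seeing the data. ENSCAFG00000003648 turned from -3.51 to 0.0127 in non-basal tumors. Of 36 alternatives, ENSCAFG00000018115 stayed called in 31, ENSCAFG00000000206 and ENSCAFG00000006430 in 21 each and ENSCAFG00000003648 in 17.

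Dog numbers pair each tumor with normal tissue of the same dog. Without this replicate block 0 genes were called, as with it, and the smallest adjusted p in limma was 0.152. With 13 adenomas and 9 grade 2 or 3 carcinomas, calls near the threshold depend on single tumors.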

Other observations

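CMT-351, labelled complex adenoma and without a listed histology, had a mean log2 difference of -2.41 between the 19 and 89 genes called in grade 2 or 3, inside the ranges of adenomas and grade 1 carcinomas. Its FPKM was 0.265 for ENSCAFG00000018115, 2.16 for ENSCAFG00000000206, 1348 for ENSCAFG00000003648 and 93.2 for ENSCAFG00000006430, each within the adenoma range.

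With all grades pooled, carcinomas were not more variable than adenomas gene by gene. This was not computed by grade or without CMT-156, the adenoma with the fewest genes detected. The median correlation between tumors was 0.909 among grade 1 and 0.849 among grade 2 or 3 carcinomas, against 0.900 among adenomas. The median SD of log2(FPKM + 1) was 0.467 over the 36 carcinomas and 0.510 over the 13 adenomas, and the SD was larger in carcinomas for 45.5% of genes. Against its own normal tissue, ENSCAFG00000003648 was higher in the tumor in 4 of 4 dogs with adenoma and 17 of 20 with carcinoma, and ENSCAFG00000000206 was higher in the tumor in 1 of 4 and 5 of 20.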
